A study of Mus musculus with 10 samples.

Results

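The glucocorticoid receptor gene *Nr3c1* and 9 genes of glucocorticoid signalling (*Sgk1*, *Fkbp5*, *Fkbp4*, *Tsc22d3*, *Per1*, *Klf9*, *Zbtb16*, *Dusp1* and *Hsd11b1*) were followed in AtT20 cells with and without *Creb3l1* knockdown. These 10 genes were listed by name and found by Ensembl identifier among the 53801 genes of the count table. The rule uses no measured value, but the genes and all lists below were chosen with earlier results of these data known. *Sgk1* was the member with the largest change. Its mean level was 2.57-fold higher in the knockdown line, while *Nr3c1* itself fell by 9.88%, *Dusp1* fell, and *Per1* and *Zbtb16* rose.

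AtT20/D16v-F2 is a mouse corticotroph line from a pituitary tumour. Poly(A) RNA was sequenced from 5 libraries of a line stably transduced with lentivirus for a non-targeting shRNA and from 5 libraries of a line stably transduced for *Creb3l1*-shRNA1. Both lines therefore carry an integrated lentivirus and a short hairpin, and both were grown in the same medium with heat-inactivated fetal bovine serum. Neither the labels nor the methods name a glucocorticoid that was added. Each condition is 1 stable line with 1 hairpin, so that the loss of *Creb3l1* and any other difference between the lines cannot be told apart. The study calls its replicates biological, but the labels give no separate transductions, and p-values measure only the spread between these RNA samples. The hairpin sequences are shown because they define the groups, in lower case with no position marked.
Creb3l1-shRNA1: gagtcggatttcctcaacaat
Non-targeting shRNA: atcatgttaggcgtacggact
The whole of the 21 bases of shRNA1 was found in the *Creb3l1* transcript. Against the transcripts of the 10 genes, the longest run shared with either hairpin was 9 of 21 bases.

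Corticotrophs make adrenocorticotrophic hormone from the precursor encoded by *Pomc*, and adrenal glucocorticoids feed back on them through the glucocorticoid receptor. Without hormone the receptor rests in the cytoplasm in a complex with the chaperone Hsp90 and its partners, among them the immunophilins encoded by *Fkbp5* and *Fkbp4*. With hormone it enters the nucleus and binds DNA as a dimer at glucocorticoid response elements (GREs), where it raises genes such as *Sgk1*, *Tsc22d3* and *Per1*, or it holds other factors back. Creb3l1 is a transcription factor of the CREB/ATF family that is held in the membrane of the endoplasmic reticulum and becomes active once it is cut in the Golgi.

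The libraries held 17420698 to 22205107 counts. *Creb3l1*, the targeted gene, had 3689 ± 148 normalised counts in the non-targeting line and 1090 ± 59.2 in the knockdown line (SD, n = 5 each), a log2 fold change of -1.76 (SE 0.036, edgeR adjusted p = 2.1e-33). A normalised count is a library's count scaled to the mean library size with TMM factors, and a gene is termed called where edgeR's quasi-likelihood test gave an adjusted p under 0.01. Of 14336 genes tested, 5837 were called (40.7%), 2958 of them higher (20.6%) and 2879 lower (20.1%) in the knockdown line. Non-targeting replicate 3 stood apart, with 4.13% of its counts on *Gm42418* against 0.106 to 0.191% in the other libraries, and without it 5 of the 10 genes were called, the number called with it. All 5 corticotroph markers were present (*Pomc*, *Tbx19*, *Crhr1*, *Neurod1*, *Pcsk1*), with summed levels of 149459 to 160718 and 107603 to 114342 normalised counts. Most of each sum was *Pomc*, and the markers did not move together. *Pomc*, *Tbx19* and *Pcsk1* were called lower, *Neurod1* was called higher, and *Crhr1* was not called. Of 8 markers of other pituitary hormone cells, 4 had no count and 7 averaged under 10. The list summed to 76.4 to 94.1 normalised counts in the control line against 55.9 to 75.4 in the knockdown line. Nearly all of that was *Nr5a1*, which was not called. The 2 leukocyte markers summed to 33.9 to 51.9 against 24.6 to 38.2, with *Ptprc* at 0 and the reads on *Cd68*. The 2 endothelial markers summed to 10.6 to 18.3 against 4.28 to 7.45, with *Cdh5* at 0 and *Pecam1* called lower. The 3 fibroblast markers summed to 814 to 1153 against 943 to 1681. The 2 melanotroph markers summed to 287 to 311 against 321 to 369, nearly all of it *Pcsk2*, which was called higher. *Pax7*, the other, was not tested and averaged 14.5 normalised counts in the control line against 5.90 in the knockdown line, without overlap. The 3 folliculostellate markers summed to 114 to 178 against 153 to 199.02, with *Sox2* called higher and *Aldh1a2* at 0. The part of these markers in the differences below was not tested. In such bulk RNA, fewer cells of a type and less RNA per cell cannot be told apart.

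Of the 10 genes, 9 had enough counts to be tested and 5 were called (55.6% of those tested, against 40.7% of all genes), 3 higher and 2 lower. The lines had no overlapping library for 4 of them, *Nr3c1*, *Sgk1*, *Zbtb16* and *Dusp1*, whereas this held for 36.0% of all genes tested. Only *Sgk1* passed a fold change of 1.5 in addition to the test, as did 7.73% of all genes. The median log2 fold change of the 9 tested genes was -0.04, beside -0.0025 over all genes.

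**Figure D1:**
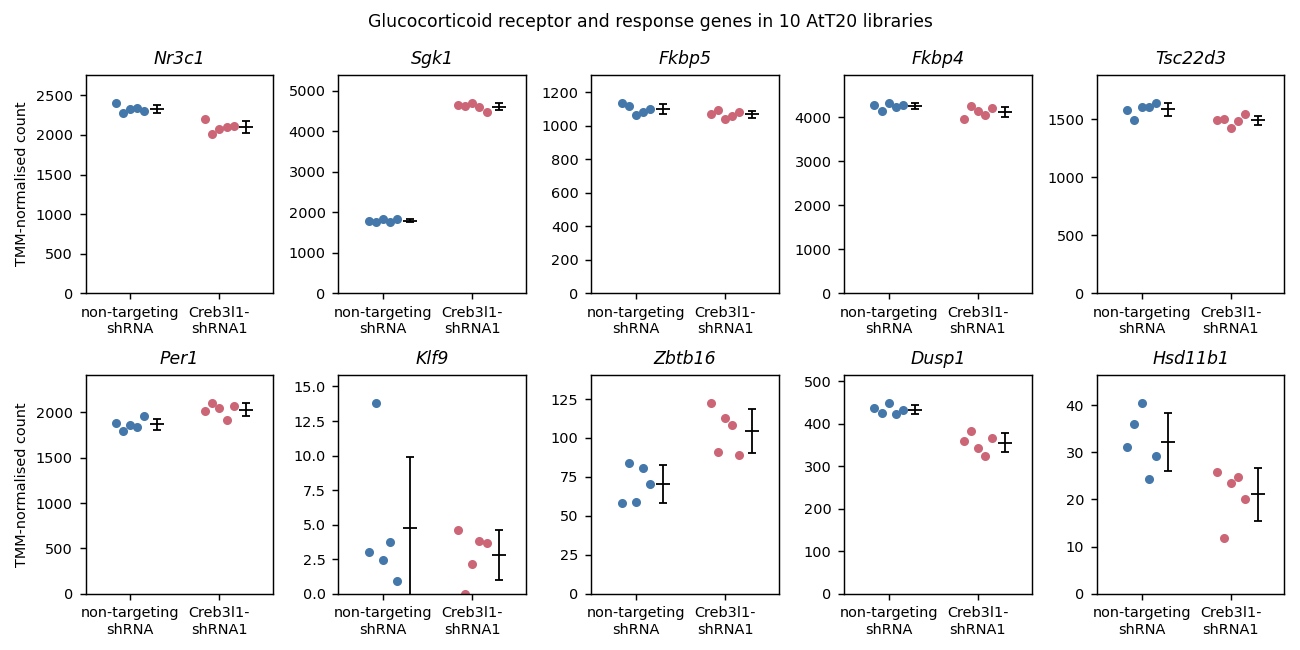
Each panel plots the normalised count of 1 gene in the 10 libraries (y axis from 0, points in replicate order from left to right), with the non-targeting shRNA line at left and the *Creb3l1*-shRNA1 line at right, and the mean ± SD of 5 libraries as the bar beside the points (the lower SD bar of *Klf9* is cut at 0). The *Sgk1* points sit at 1762 to 1835 and at 4470 to 4695, whereas those of *Fkbp5*, *Fkbp4*, *Tsc22d3*, *Per1*, *Klf9* and *Hsd11b1* overlap between the lines.

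*Nr3c1* (ENSMUSG00000024431, chromosome 18, 39410545 to 39519421, minus strand, GRCm38.p6) encodes the receptor. Its normalised counts were 2402, 2272, 2331, 2341 and 2304 in non-targeting replicates 1 to 5 and 2207, 2006, 2076, 2095 and 2112 in knockdown replicates 1 to 5. The knockdown libraries all lay beneath the control libraries, the nearest pair being knockdown replicate 1 and non-targeting replicate 2. The means were 2330 ± 48.3 and 2099 ± 72.5, a log2 fold change of -0.15 (SE 0.031, edgeR adjusted p = 8.3e-05). The difference was small among the genes of these lines, since 2474 of the 2879 genes called lower fell further and 50.9% of all tested genes changed more in either direction. With GC and length offsets in the model the log2 fold change was -0.25, in the same direction and still called.

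The genes whose libraries followed *Nr3c1* most closely were *Cast* (the calpain inhibitor calpastatin, Pearson r = 0.983), *Lyrm7* (a mitochondrial assembly factor, r = 0.982) and *Gsn* (the actin-severing protein gelsolin, r = 0.978), out of 11000 genes whose mean was 100 normalised counts or more. The 10 libraries behind each r belong to 2 lines and were compared in log2 normalised counts. Each r therefore reflects the step between the lines as well as the spread within them. All 3 of these genes were called lower, with log2 fold changes of -0.45, -0.59 and -0.47. Since they were picked by r with *Nr3c1*, which fell, their lower levels are no separate result.

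Other steroid receptor genes were nearly absent. *Nr3c2*, which encodes the mineralocorticoid receptor and also binds corticosterone, had 1 read over all 10 libraries. *Pgr* and *Esr1*, the receptor genes for progesterone and oestrogen, had 1 read each in total, and *Esr2* had 17. *Nr3c1* was thus the only one of these steroid receptor genes above a mean of 10 normalised counts.

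The genes for enzymes that set the hormone inside the cell were low or were not called. *Hsd11b1* (ENSMUSG00000016194, chromosome 1, 193221634 to 193264075, minus strand) encodes the dehydrogenase that regenerates active glucocorticoid from its inert keto form. It gave 31.2, 36.0, 40.3, 24.4 and 29.2 normalised counts in the control libraries and 25.7, 11.8, 23.4, 24.6 and 19.99 in the knockdown libraries. The lowest control, replicate 4, lay below 2 of the knockdown libraries, so the lines overlapped. The means were 32.2 ± 6.15 and 21.1 ± 5.64, a log2 fold change of -0.58 (SE 0.22), which was not called (edgeR adjusted p = 0.025) at counts of 11 to 34 per library. *H6pd*, named here after its values were seen because its product supplies the cofactor of this enzyme, had 1408 ± 47.2 and 1414 ± 27.8 normalised counts. *Hsd11b2*, for the enzyme that inactivates the hormone, had 6 reads in total. Of the list of 11 steroid receptor and steroid handling genes, 3 were tested, 0 were called by edgeR, and 0 had an unadjusted p under 0.05. DESeq2, which tested more genes, and edgeR without a filter on low counts each called 1 gene of the list lower, the drug and steroid exporter *Abcb1a* (adjusted p = 0.0014 and 3.6e-05), whose mean was 7.71 normalised counts in the control line and 0.792 in the knockdown line.

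Neither of the immunophilin genes was called. *Fkbp5* (ENSMUSG00000024222, chromosome 17, 28399094 to 28517527, minus strand) encodes the immunophilin that lowers hormone binding and is itself a standard glucocorticoid-induced gene. Its normalised counts were 1136, 1117, 1066, 1080 and 1101 in the control line and 1071, 1092, 1038, 1056 and 1080 in the knockdown line. The ranges overlapped, and the log2 fold change was -0.04 (SE 0.036, edgeR adjusted p = 0.33). *Fkbp4* (ENSMUSG00000030357, chromosome 6, 128429735 to 128438677, minus strand) encodes the immunophilin that favours hormone binding and transport to the nucleus. It had 4267, 4134, 4318, 4239 and 4283 normalised counts in the control line and 3959, 4246, 4138, 4053 and 4196 in the knockdown line, again with overlap. Its log2 fold change was -0.04 (SE 0.027, edgeR adjusted p = 0.16), and it turned to 0.02 with offsets for GC content and length.

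The balance of the immunophilin genes differed between the lines by less than the spread of the libraries. The log2 ratio of *Fkbp5* to *Fkbp4* normalised counts was -1.95 ± 0.052 in the control line and -1.95 ± 0.040 in the knockdown line (SD, n = 5). The difference was 0.0019 on the log2 scale, with p = 0.94 in a two-sided exact permutation test whose smallest possible p is 0.0079. Its sign turned in 5 of 10 repeats that left out 1 library, with values of -0.015 to 0.017.

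Sgk1 is a serum- and glucocorticoid-induced kinase that controls ion channels and transporters at the cell surface. *Sgk1* (ENSMUSG00000019970, chromosome 10, 21882184 to 21999903, plus strand) gave 1776, 1762, 1828, 1766 and 1835 normalised counts in the control libraries. In the knockdown libraries it gave 4643, 4622, 4695, 4597 and 4470. The gap between the lines was far wider than the spread in either, the coefficient of variation being 1.95% and 1.82%. The means were 1793 ± 35.0 and 4606 ± 83.9, a log2 fold change of 1.36 (SE 0.028, edgeR adjusted p = 1.5e-33). Only 96 of the 2958 genes called higher rose more, and 1.56% of all tested genes changed more in either direction. The 20 alternative settings, some of which changed only the threshold and kept the same fit, gave log2 fold changes of 1.36 to 1.38.

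**Figure D2:**
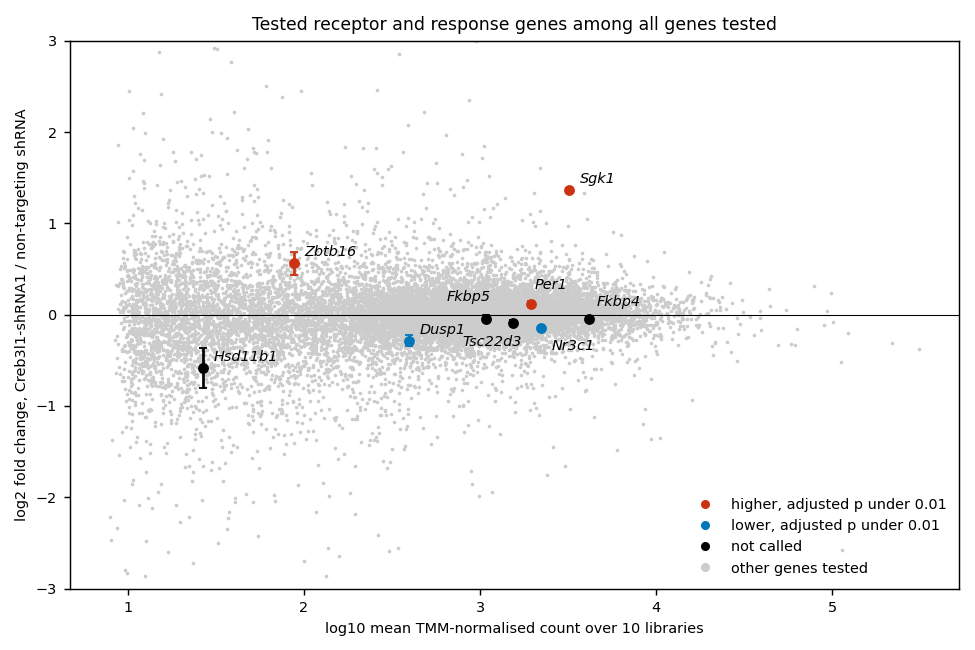
Grey points are the genes tested, by mean normalised count over 10 libraries (x axis, log10) and log2 fold change of the knockdown line over the non-targeting line (y axis), and the 9 tested genes are drawn over them with their SE (25 genes lie beyond the limit of 3 on the y axis). *Sgk1* at 1.36 stands above most genes of like abundance, *Zbtb16* at 0.56 lies among scattered genes of low count, and the others lie within the cloud.

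The start sites of these genes were searched for a few short motifs. As examples, 3 promoters of called genes are printed: 1 with the GRE, 1 with the cyclic AMP response element, and 1 start of *Per1*. RefSeq (GRCm38.p6) gave 16 start sites for 8 of the 10 genes, with none for *Nr3c1* and *Zbtb16*, each as 250 bases before and 50 bases from the start. The GRE was searched as AGAACA, any 3 bases, TGTTCT, 1 arm of it as AGAACA, the cyclic AMP response element (CRE) as TGACGTCA, the core of the CRE as TGACG, a G-box as GACGTG and an E-box as CACGTG, all on both strands. An arm or core is counted also within its full element, and a G-box can share bases with a CRE core. The GRE occurred in 3 of 32851 promoters (0.00913%), those of *Acnat2*, *Sgk1* and *Gm35041*, and a looser form (G, any base, ACA, any 3 bases, TGT, any base, C) in 0.475%. The share of all promoters was 19% for the GRE arm, 1.79% for the CRE, 20.8% for the CRE core, 6.38% for the G-box and 7.15% for the E-box. A G-box with this core is the Creb3l1 site that the study reports in the *Pcsk1* promoter. Among the 16 promoters only that of *Klf9* held a G-box of this form, with its first base at -45 from the start site. The study also names a longer G-box in the rat vasopressin promoter, which contains the bases searched here as the E-box. That longer sequence was not searched as a whole. The E-box began at -246 in *Sgk1* start 5, -169 in *Fkbp5*, -166 in *Per1* start 1 and -126 in *Dusp1*. Binding of Creb3l1 to these promoters was not tested.

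The fifth of the 6 annotated starts of *Sgk1* held the GRE, with its first base at -189 from the start site, and a further GRE arm that overlaps an E-box near the upstream end. It is the interval chr10:21993640-21993939 on the plus strand, and capitals mark the E-box with its overlapping arm and then the GRE.
Sgk1 start 5: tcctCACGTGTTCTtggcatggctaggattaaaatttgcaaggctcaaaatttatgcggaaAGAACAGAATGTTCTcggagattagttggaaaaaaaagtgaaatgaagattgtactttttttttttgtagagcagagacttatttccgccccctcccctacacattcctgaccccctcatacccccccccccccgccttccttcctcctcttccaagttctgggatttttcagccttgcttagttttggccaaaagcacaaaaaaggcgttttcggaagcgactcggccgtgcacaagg
The other 5 starts of *Sgk1* held a GRE arm (starts 1 and 4), a CRE core (start 2) or none of the motifs. The counts are per gene and do not tell which start the reads came from.

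*Dusp1* (ENSMUSG00000024190, chromosome 17, 26505590 to 26562128, minus strand) encodes a phosphatase that switches off MAP kinases and is induced by glucocorticoids and by cyclic AMP. Its normalised counts were 437, 425, 447, 423 and 433 in the control line and 360, 382, 343, 324 and 365 in the knockdown line. All knockdown libraries were below all control libraries. The means were 433 ± 9.71 and 355 ± 22.3, a log2 fold change of -0.29 (SE 0.060, edgeR adjusted p = 9.2e-05). The exons of *Dusp1* overlap those of *Ergic1* on the opposite strand, which had up to 4408 counts in a library, and the strand setting of the counting was not given in the sources used here, so that reads of the pair may not be told apart. Its promoter was the only one of the 16 with a whole CRE, which begins at -143 from the start site. It is the interval chr17:26508423-26508722 on the minus strand, and capitals mark a CRE core, the CRE and an E-box in that order.
Dusp1: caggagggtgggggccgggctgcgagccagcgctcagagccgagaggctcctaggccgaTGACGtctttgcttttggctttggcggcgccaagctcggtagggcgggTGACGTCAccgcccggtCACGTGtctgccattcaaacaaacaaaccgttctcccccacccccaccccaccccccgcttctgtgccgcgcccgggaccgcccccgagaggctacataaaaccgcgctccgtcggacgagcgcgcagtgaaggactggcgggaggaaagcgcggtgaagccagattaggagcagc

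*Per1* (ENSMUSG00000020893, chromosome 11, 69095217 to 69109960, plus strand) encodes a repressor of the circadian clock that glucocorticoids and cyclic AMP both induce. It gave 1880, 1795, 1857, 1836 and 1963 normalised counts in the control libraries and 2016, 2099, 2042, 1917 and 2070 in the knockdown libraries. Only knockdown replicate 4 fell within the control range, below non-targeting replicate 5. The means were 1866 ± 62.6 and 2029 ± 69.8, a log2 fold change of 0.12 (SE 0.032, edgeR adjusted p = 0.002). The first of its 2 annotated starts, chr11:69098699-69098998 on the plus strand, held a CRE core and an E-box, which are marked by capitals, and its second start held a CRE core.
Per1 start 1: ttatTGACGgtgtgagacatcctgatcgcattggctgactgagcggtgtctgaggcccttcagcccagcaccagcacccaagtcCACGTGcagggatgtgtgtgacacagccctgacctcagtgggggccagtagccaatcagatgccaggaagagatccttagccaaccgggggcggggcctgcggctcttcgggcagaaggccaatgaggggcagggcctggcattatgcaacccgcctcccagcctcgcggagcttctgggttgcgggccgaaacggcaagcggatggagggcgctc

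**Figure D3:**
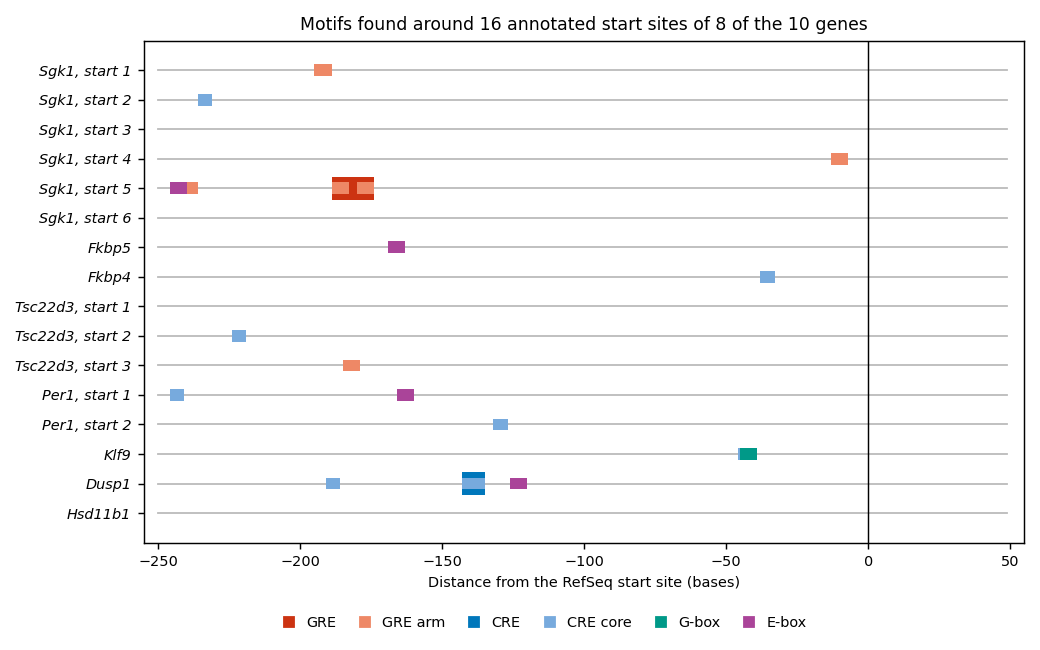
Each line is the 300 bases around 1 of the 16 RefSeq start sites of 8 of the 10 genes (x axis, bases from the start site at 0), and coloured boxes mark the motifs found on either strand. The GRE lies in the row of *Sgk1* start 5 and the CRE in the row of *Dusp1*, each drawn taller with its arms or cores inside.

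*Zbtb16* (ENSMUSG00000066687, chromosome 9, 48654297 to 48836222, minus strand) encodes a zinc finger repressor that is strongly induced by glucocorticoids in many tissues. Its levels were low, with 58.3, 83.7, 58.7, 80.8 and 70.7 normalised counts in the control libraries and 122, 91.0, 113, 108.02 and 89.1 in the knockdown libraries. The libraries did not overlap, but non-targeting replicate 2 and knockdown replicate 5 were only a few counts apart. The means were 70.4 ± 11.9 and 104.6 ± 14.3, a log2 fold change of 0.56 (SE 0.13, edgeR adjusted p = 0.00022), or 1.48-fold.

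*Tsc22d3* (ENSMUSG00000031431, chromosome X, 140539528 to 140600659, minus strand) encodes the glucocorticoid-induced leucine zipper, an inhibitor of inflammatory transcription. Its normalised counts were 1581, 1492, 1606, 1608 and 1640 in the control line and 1492, 1504, 1428, 1483 and 1542 in the knockdown line. The ranges overlapped through non-targeting replicate 2, the lowest control. The log2 fold change was -0.09 (SE 0.034), which was not called (edgeR adjusted p = 0.024). Without non-targeting replicate 2 it was -0.11 and was called (edgeR adjusted p = 0.0084).

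*Klf9* (ENSMUSG00000033863, chromosome 19, 23141226 to 23168134, plus strand), a zinc finger factor gene that glucocorticoids induce in brain and liver, was near the limit of detection. It had 3, 13, 2, 4 and 1 reads in the control libraries and 5, 0, 2, 4 and 4 in the knockdown libraries. It was left out of the test by the filter on low counts. In edgeR without that filter its log2 fold change was -0.68 (SE 0.60, adjusted p = 0.42), so that no difference was detectable at 38 reads in all.

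Levels of different genes were compared per length, as CPM per kilobase of exons, where CPM is the count scaled to a common library size. In the control line *Fkbp4* was highest at 74.96 ± 1.24, followed by *Sgk1* at 18.0 ± 0.352, *Tsc22d3* at 18.0 ± 0.638, *Per1* at 16.3 ± 0.548 and *Nr3c1* at 15.0 ± 0.310. *Sgk1* overlapped *Tsc22d3* in this order, and *Tsc22d3* overlapped *Per1*. *Dusp1* at 6.45 ± 0.145 and *Fkbp5* at 5.73 ± 0.145 came next, and *Zbtb16* (0.658 ± 0.111), *Hsd11b1* (0.374 ± 0.0714) and *Klf9* (0.049 ± 0.053) were low. In the knockdown line *Sgk1* stood alone in the second place at 46.3 ± 0.844, *Per1* (17.8 ± 0.612) came before *Tsc22d3* (16.9 ± 0.471) with overlap, and *Fkbp5* (5.56 ± 0.108) overlapped *Dusp1* (5.29 ± 0.331). *Nr3c1* kept the fifth place at 13.5 ± 0.466. By its level over all 10 libraries, *Nr3c1* was above 71.1% of the genes tested, *Fkbp4* above 95.9%, *Sgk1* above 87.8%, *Zbtb16* above 14.0% and *Hsd11b1* above 5.09%.

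**Figure D4:**
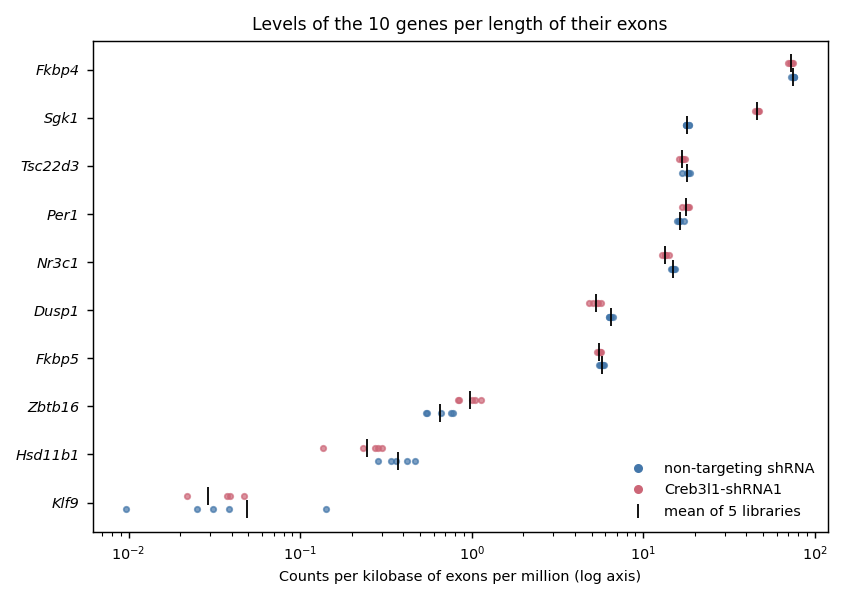
Points are libraries and vertical bars are means of 5 libraries, by CPM per kilobase of exons on a log axis, with the 10 genes in rows (knockdown line above, non-targeting line below in each row). *Fkbp4* leads in both lines at 74.96 and 72.7, *Sgk1* moves from 18.0 to 46.3, and *Klf9* is lowest (its knockdown library with no read cannot be drawn on this axis).

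The chaperone machine that holds the receptor was present in full, and its changes were small. All 15 listed chaperone and co-chaperone genes were tested and 8 were called (53.3%, against 40.7% of all genes tested), 5 higher and 3 lower, with a median log2 fold change of -0.04. *Bag1*, a cochaperone that restrains the receptor, rose from 1822 ± 37.2 to 2178 ± 62.7 normalised counts (log2 fold change 0.26, edgeR adjusted p = 3.2e-09). *Ptges3*, which encodes the p23 protein that steadies the Hsp90 and receptor complex, rose from 3058 ± 176 to 3540 ± 191 (0.21), and *Hsph1*, a large heat shock protein gene, from 6012 ± 122 to 6811 ± 47.4 (0.18). *Ppp5c*, the phosphatase that binds Hsp90 beside the receptor, fell from 3851 ± 120 to 3448 ± 113 (-0.16). *St13*, for the Hsp70-binding protein Hip, and *Stip1*, for the Hop adaptor between Hsp70 and Hsp90, had log2 fold changes of -0.15 and -0.08, both called. The calls of *Ppp5c* and *Stip1* were lost with offsets for GC content and length. That of *Stip1* was also lost on leaving out any 1 of non-targeting replicates 1, 2, 4 and 5 or knockdown replicates 1, 3 and 5 (edgeR adjusted p = 0.011 to 0.019). *Hsp90ab1*, picked after its values were seen as the most abundant Hsp90 gene here, had 42700 ± 483 and 45654 ± 1183 normalised counts (0.10, edgeR adjusted p = 4.3e-05).

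More of the coregulators that the receptor recruits were called higher than lower. All 14 were tested and 8 were called (57.1%, against 40.7% of all genes tested), 7 higher and 1 lower, and their median log2 fold change was 0.14 beside -0.0025 for all genes. *Crebbp*, the acetyltransferase that CREB factors and nuclear receptors both use, rose from 1784 ± 115 to 2294 ± 63.0 normalised counts (0.36, edgeR adjusted p = 4.5e-11). *Nrip1*, which encodes a corepressor, rose by 0.31 on the log2 scale. *Carm1*, an arginine methyltransferase that acts as a coactivator, fell from 2257 ± 32.6 to 1824 ± 65.6 (-0.31, edgeR adjusted p = 4.6e-11). With offsets for GC content and length, 6 were called, 4 higher and 2 lower, and *Nrip1*, whose libraries overlapped, was no longer among them. None of these 14 genes passed a fold change of 1.5.

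A further 30 genes known to be raised by glucocorticoids in other cells were examined beside the 9. Of them 22 were tested and 15 were called (68.2%, against 40.7% of all genes tested), 5 higher and 10 lower, and the other 8 averaged under 10 normalised counts. Their median log2 fold change was -0.03. The genes that rose most were *Snai2*, a zinc finger repressor (268 ± 25.7 to 379 ± 16.1 normalised counts, 0.51), *Rasd1*, a dexamethasone-induced small G protein (104.004 ± 13.2 to 146 ± 17.1, 0.50), and *Irs2*, an adaptor of insulin signalling (1757 ± 71.4 to 2248 ± 114, 0.36). The genes that fell most were *Mt2*, a metal-binding metallothionein (5111 ± 296 to 2876 ± 41.6, -0.83), *Tgm2*, a transglutaminase (1576 ± 45.2 to 892 ± 32.02, -0.82), and *Nfkbia*, the inhibitor of NF-kappaB (568 ± 31.9 to 327 ± 24.1, -0.80). The libraries of the lines did not overlap for any of these 6 genes, and the edgeR adjusted p ranged from 8.4e-05 for *Rasd1* to 1.2e-23 for *Mt2*. A fold change of 1.5 was passed by 5 of the genes, all of them lower: *Mt2*, *Tgm2* and *Nfkbia*, and, outside the naming rule and picked after their values were seen, the sodium channel subunit *Scnn1a* (-0.73) and *Mt1* (-0.59). *Sgk1*, which lengthens the stay of this sodium channel at the cell surface, and *Scnn1a* thus moved in opposite directions, at 1.36 and -0.73.

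Among genes of the *Pomc* feedback loop, 7 of 8 were tested and 5 were called (71.4%, against 40.7% of all genes tested), 2 higher and 3 lower, with a median log2 fold change of -0.11. *Pomc* itself fell from 131411 ± 4050 to 92045 ± 2652 normalised counts (-0.51, edgeR adjusted p = 1.2e-16). By quantitative PCR, in contrast, the study reports that *Pomc* mRNA did not change in its knockdown lines. The reason for this difference was not tested. *Tbx19*, the corticotroph factor that drives *Pomc*, fell by 0.27 on the log2 scale, and *Nr4a1*, an orphan receptor that the glucocorticoid receptor opposes at *Pomc*, fell from 502 ± 27.5 to 384 ± 27.5 (-0.39). Its relative *Nr4a2* rose by 0.26 on the log2 scale, and *Neurod1*, a basic helix-loop-helix activator of *Pomc*, rose from 1566 ± 64.6 to 2400 ± 82.3 (0.62, edgeR adjusted p = 3.2e-19). *Nr4a3* and the receptor gene *Crhr1* were not called (0.04 and -0.11), and *Avpr1b* had no read.

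Relatives of the 10 genes were set beside them. Of 20 paralogs, 14 were tested and 8 were called (57.1%, against 40.7% of all genes tested), 6 higher and 2 lower, with a median log2 fold change of 0.09. *Sgk3*, the other kinase of the Sgk family that was expressed, had 758 ± 50.7 and 872 ± 73.1 normalised counts with overlapping libraries (0.20, edgeR adjusted p = 0.0021), and its call was lost without non-targeting replicate 3 (edgeR adjusted p = 0.011). *Sgk2* had 1 read in all. *Dusp5*, a nuclear phosphatase for ERK, rose from 1699 ± 43.1 to 2706 ± 120 (0.67, edgeR adjusted p = 1.2e-20), whereas *Dusp4* fell by 0.30 on the log2 scale, as *Dusp1* did by 0.29. *Tsc22d2* rose by 0.25 and *Tsc22d1* fell by 0.14 on the log2 scale, and *Tsc22d4* had a log2 fold change of -0.04 that was not called. The clock genes *Per2* and *Per3*, with log2 fold changes of 0.08 and 0.13, were not called, and these had the sign of *Per1*. *Fkbp2*, an immunophilin of the endoplasmic reticulum, rose by 0.36, *Fkbp8* rose by 0.10, and *Fkbp1a*, at 0.01, was not called. With offsets for GC content and length *Fkbp1a* was called higher, at 0.10 (edgeR adjusted p = 0.00018).

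**Figure D5:**
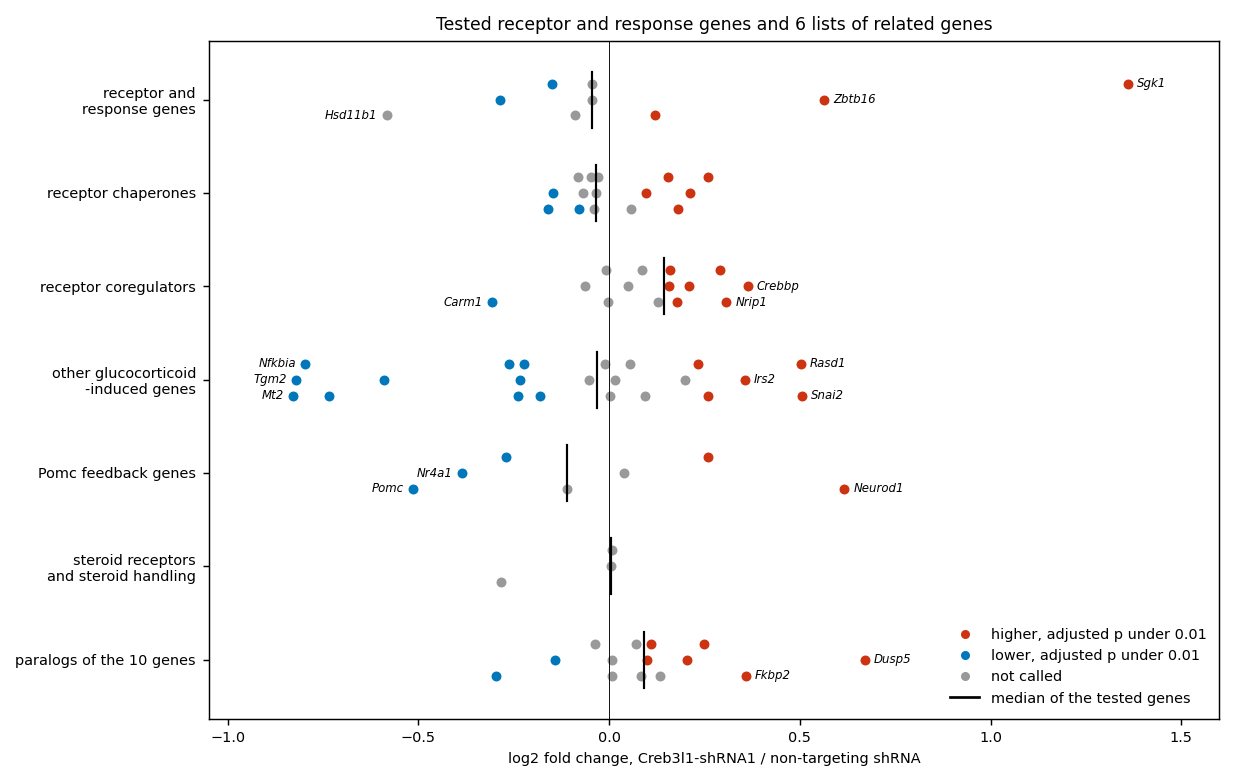
Each point is a tested gene by its log2 fold change of the knockdown line over the non-targeting line (x axis), in rows for the 10 genes and for 6 lists of related genes, with black bars for the median of the tested genes of a row and colours for the call at an edgeR adjusted p under 0.01. *Sgk1* at 1.36 lies beyond every gene of the other rows, whose extremes are *Dusp5* at 0.67 and *Mt2* at -0.83.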

How the data were processed

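By the methods and the submitters' processing notes, libraries were stranded and of poly(A) RNA, trimmed reads were aligned to GRCm38 by STAR, and featureCounts assigned them to Ensembl genes. The authors deposited raw counts per gene and library, whole numbers without normalisation. The strand setting of the counting is not given in the sources used here. From these counts, edgeR 4.0.16 (filterByExpr, TMM factors, robust quasi-likelihood test, Benjamini-Hochberg adjustment over all 14336 genes tested) compared the lines at the study's threshold of 0.01. DESeq2 1.42.0, another scaling, other filters on low counts, offsets for GC content and length, a replicate block, other thresholds and leaving out each library were alternatives, and edgeR without its robust option was added after the data were seen. The fits were tested on simulated data. The 10 genes and all lists were chosen with earlier results of these data known. From each list, up to 3 called genes with the largest increase and 3 with the largest decrease were named, with paralogs beside their relative and the 3 genes most correlated with *Nr3c1*. Some listed genes are not reported here by name. Symbols matched 53620 of 53801 identifiers. Gene positions came from GENCODE for GRCm38.p6 and promoters from RefSeq. Depth of 17420698 to 22205107 counts per library limits *Klf9*, *Hsd11b1* and *Zbtb16*. The quantitative PCR, protein and in vivo data of the study were not analysed here.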

Additional observations from a re-analysis of the deposited data

Results flagged for a closer look

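In 4 of 94 sets of 5 libraries (each named gene in each line), 1 library lay far from the other 4 by Dixon's test, where chance alone would give about 4.7, or 1 set in 20. *Klf9* had 13.8 normalised counts in non-targeting replicate 2 against 0.943 to 3.76 in the other control libraries. *Rasd1* had 127 in non-targeting replicate 3 against 94.3 to 101.4, and *Snai2* had 312 in the same library against 244 to 262. *St13* had 3367 in knockdown replicate 5 against 3190 to 3240. Non-targeting replicate 3 is also the library with the high share of *Gm42418*, and without it *Rasd1* and *Snai2* had log2 fold changes of 0.57 and 0.56, both still called.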

How the results depend on the processing

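With DESeq2, RLE size factors, library totals, other low-count filters, no robust option, offsets for GC content and length, a replicate block, or any 1 library left out, 5 of the 10 genes were called, except 6 without non-targeting replicate 2. At an adjusted p under 0.05, 7 were called. With a fold change of 1.5 added to the test, 1 of the 10 genes, 0 chaperones, 0 coregulators, 5 other glucocorticoid-induced genes, 1 *Pomc* feedback gene, 1 paralog and 1108 genes in all were called. The steroid list went from 0 to 1 with DESeq2 and with no filter. Leaving out 1 library gave 5408 to 6026 genes in all. Offsets turned *Fkbp4* to a log2 fold change of 0.0248 and gave *Fkbp1a* a call (0.10, edgeR adjusted p = 0.00018). With 1 library left out, *Fkbp1a* ranged from -0.00052 to 0.027 and *H6pd* from -0.0079 to 0.022. The *Fkbp5* to *Fkbp4* ratio ranged from -0.015 to 0.017. Same-numbered libraries did not deviate together (correlations -0.0604 to 0.036), so the numbers do not pair them. The replicate block gave 6013 genes in all and 5 of the 10, and *Ptges3* was then not called (0.21, edgeR adjusted p = 0.013). *Stip1* was not called in 7 of 10 fits that left out a library. The causes were not tested. Over all the fits, the median log2 fold change of all genes ran from -0.0178 with no filter on low counts to 0.011 with offsets for GC content and length.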
